A study of Mus musculus with 3 samples.

Results

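Among 10 mouse genes for TNF, its receptors and related death receptors, and proteins that act below them, 8 passed a filter on low values. Of these 8, 3 were at least 2-fold higher by FPKM + 1 in the reperfused liver library than in the ischemic one. They were the receptor genes Tnfrsf12a, Tnfrsf1a and Fas, and 5.78% of all genes tested were higher by the same rule. Of the 3, only Tnfrsf12a stayed at least 2-fold higher once each library was rescaled to a common sum of FPKM. Only its bounds of counting error lay wholly above those in the ischemic library, while the bounds of Tnfrsf1a and Fas overlapped. The 10 genes were chosen by symbol as members of this pathway, with earlier results of these data known. All 10 were found among the 23361 genes of the deposited tables. They were the ligand Tnf, the receptors Tnfrsf1a, Tnfrsf1b, Tnfrsf12a, Fas, Ltbr and Tnfrsf10b, and the intracellular regulators Ripk1, Ripk3 and Cflar. Livers came from C57BL/6J mice labelled male and 8 to 10 weeks old, fasted for 12 h before surgery under chloral hydrate. The sham sample (Sham) was taken 90 min after a laparotomy without occlusion, the warm ischemia sample (WI) after 90 min of clamping of the vessels and bile duct to 70% of the liver, and the sample of ischemia followed by reperfusion (IR) after 90 min of clamping and 120 min of restored flow. The study describes 6 mice per group, but each group has 1 mRNA library, and whether that library pools mice is not stated. No sham sample matches the IR sample in time, so reperfusion and the longer time after surgery cannot be told apart. The IR library also differs from the others in sex-linked transcripts, as described below, and that difference cannot be separated from reperfusion either.

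TNF is a cytokine released mainly by macrophages and other leukocytes, and its receptor TNFR1 (Tnfrsf1a) is present on most cells, while TNFR2 (Tnfrsf1b) is found mostly on immune and endothelial cells. Bound TNFR1 gathers the adaptor TRADD, the kinase RIPK1 and ubiquitin ligases into a complex that activates NF-kB and so the transcription of survival and inflammatory genes. If that complex fails, RIPK1 joins FADD and caspase-8 to start apoptosis, or RIPK3 and MLKL to start necroptosis, and c-FLIP (Cflar) restrains caspase-8. Fas and the TRAIL receptor (Tnfrsf10b) carry death domains and reach caspase-8 more directly, whereas the lymphotoxin beta receptor (Ltbr) and the TWEAK receptor Fn14 (Tnfrsf12a) have none. Hepatocytes are known for their sensitivity to Fas and, once NF-kB is blocked, to TNF, which is why these genes are followed in liver injury.

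Levels are given as FPKM, which counts sequenced fragments relative to transcript length and library size, so genes can be compared within a library. Each FPKM stands beside its 95% bounds from the authors' Cufflinks run, which express that tool's model of counting error and not the variation between mice. Differences are on the scale of log2(FPKM + 1), which understates those of low genes, and were taken for the 10792 genes that reached an FPKM of 1 in 1 or more libraries. A gene was called when FPKM + 1 differed at least 2-fold. With 1 library per group there is no replicate check and no test of any difference.

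The labels of the libraries did not all match their content. All 3 are labelled male, but Xist, which is transcribed from the inactive X chromosome of females, had an FPKM of 18.9 in Sham, 20.1 in WI and 1.29 in IR. Eif2s3y on the Y chromosome was listed at 0 in Sham and WI and had an FPKM of 13.2 in IR, and Ddx3y, Kdm5d and Uty were at or near 0 in Sham and WI as well. Reperfusion and the difference in sex that these transcripts show therefore cannot be told apart in either comparison with the IR library. Without the Sham and WI libraries no comparison is left. None of the 10 genes lies on a sex chromosome, which does not lift this limit. Hepatocyte markers were high in every library (Hnf4a at 144, 122 and 136 FPKM in Sham, WI and IR), apart from Alb, which is listed at 0 with the status that marks loci too deep to process. Summed over the 8 neutrophil markers found, FPKM was 25.9 in Sham, 19.6 in WI and 471 in IR, and over 8 Kupffer cell and macrophage markers it was 573, 304 and 210. The sums were 153, 116 and 116 for 6 sinusoidal endothelial markers (of which Lyve1 went from 2.73 in WI to 33.4 in IR and Clec4g from 55.9 to 41.4). For 6 stellate cell and fibroblast markers they were 145, 103 and 106, of which Dcn alone had 130, 91.2 and 95.5. For 5 cholangiocyte markers they were 54.2, 62.0 and 93.6, of which Spp1 alone had 51.8, 58.7 and 86.7. These 2 sums thus mainly follow 1 gene each. For 4 B cell markers they were 4.69, 2.59 and 1.87. In such bulk tissue, fewer cells of a type and less RNA per cell cannot be told apart.

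Tnfrsf12a encodes Fn14, the receptor for the cytokine TWEAK, and lies on chromosome 17 of mm10 from 23675445 to 23677449. Its FPKM was 6.25 in Sham (95% bounds 0 to 12.9), 4.31 in WI (0 to 11.7) and 78.7 in IR (30.02 to 127). The Sham and WI values lay within each other's bounds, and the IR value stood 18.3-fold above WI and 12.6-fold above Sham. Even the lower IR bound was 2.56 times the upper WI bound and 2.32 times the upper Sham bound. The difference of log2(FPKM + 1) was 3.91 between IR and WI (model SE 1.12), larger than that of 99.6% of the genes tested. The deposited table assigns this gene to a locus shared with Hcfc1r1, Thoc6 and Ccdc64b, and its bounds are wide, with a coefficient of variation of 87.8% in WI against a median of 26.5% over all genes tested. Hcfc1r1, the most abundant of those neighbours, had an FPKM of 18.8 in Sham, 19.3 in WI and 26.4 in IR, with overlapping bounds throughout.

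Tnfrsf1a, on chromosome 6 from 125349723 to 125362483, encodes the main signaling receptor for TNF. Its FPKM was 30.8 in Sham (16.4 to 45.1), 36.8 in WI (19.5 to 54.1) and 80.2 in IR (40.2 to 120.1). The IR value was 2.18-fold that of WI and 2.60-fold that of Sham, but its bounds overlapped those of both. Fas, the receptor for Fas ligand, spans chromosome 19 from 34290647 to 34327775. Its level was 9.29 FPKM in Sham (3.39 to 15.2), 9.36 in WI (3.47 to 15.2) and 24.6 in IR (8.27 to 40.8). The Sham and WI values of Fas were nearly equal, and the IR value was 2.62-fold that of WI, again with overlapping bounds. On the scale of log2(FPKM + 1), IR exceeded WI by 1.10 (model SE 0.49) for Tnfrsf1a and by 1.30 (0.63) for Fas.

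Because these 3 receptor genes were called together, the 250 bases before the start of each are shown, 5′ to 3′, from RefSeq on GRCm38.p6, the assembly also known as mm10. For Fas, that is the start of its RefSeq transcript at 34290659, 12 bases inside the gene's outer start. Capitals mark matches on either strand to the motifs named after the sequences.
Tnfrsf12a, chr17:23677450-23677699, minus strand: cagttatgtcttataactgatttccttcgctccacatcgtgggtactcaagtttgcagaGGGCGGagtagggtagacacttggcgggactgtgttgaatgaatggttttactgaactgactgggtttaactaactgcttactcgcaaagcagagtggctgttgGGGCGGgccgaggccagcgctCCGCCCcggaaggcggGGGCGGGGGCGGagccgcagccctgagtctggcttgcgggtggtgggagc
Tnfrsf1a, chr6:125349473-125349722, plus strand: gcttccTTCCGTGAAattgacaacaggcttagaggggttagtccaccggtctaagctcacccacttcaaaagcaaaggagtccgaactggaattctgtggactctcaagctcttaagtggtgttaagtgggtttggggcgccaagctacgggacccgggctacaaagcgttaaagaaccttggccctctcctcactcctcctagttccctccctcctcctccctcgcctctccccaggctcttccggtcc
Fas, chr19:34290409-34290658, plus strand: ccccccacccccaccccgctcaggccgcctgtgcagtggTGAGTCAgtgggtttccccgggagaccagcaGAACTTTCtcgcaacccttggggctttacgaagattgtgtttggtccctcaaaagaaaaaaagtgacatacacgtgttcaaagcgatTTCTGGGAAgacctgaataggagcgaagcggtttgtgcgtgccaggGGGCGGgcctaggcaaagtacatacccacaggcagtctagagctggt

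The motifs searched were those of AP-1 (TGANTCA), NF-kB (the 10-letter kappa B consensus), Sp1 (GGGCGG), CRE (TGACGTCA), the heat shock element (GAANNTTC), STAT (TTCNNNGAA) and the TATA box (TATAAA), on both strands, and no marked match overlapped another. The Tnfrsf12a window held 5 Sp1 matches, of which 4 began within 87 bases of the start, and no other match. The Tnfrsf1a window held a STAT match that began 244 bases before the start and no Sp1 match. The Fas window held an AP-1 match at 211 bases, a heat shock element match at 180, a STAT match at 93 and an Sp1 match at 47. Of 32851 promoter windows of this length in the table, 32.7% held an Sp1 match, 6.75% an AP-1 match, 7.02% a STAT match and 6.69% a heat shock element match. A CRE match was in 1.55% and a TATA box match in 12.4%. The kappa B consensus, found in 3.9% of windows, was in none of the windows of the 9 genes in that table (Tnfrsf10b has no entry). Such matches are letters in a window and show no binding.

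Ltbr and Tnfrsf1b, the other receptors of the 10 genes that passed the filter, were not called. Ltbr, the receptor for lymphotoxin and LIGHT, had an FPKM of 26.4 in Sham (14.1 to 38.7), 29.0 in WI (15.5 to 42.5) and 38.8 in IR (20.4 to 57.1). Its IR value was 1.34-fold that of WI, below the 2-fold threshold. Tnfrsf1b, which encodes TNFR2, was the 1 receptor among the 10 genes with its highest value in Sham. It had an FPKM of 17.8 (9.37 to 26.3) there, against 9.76 in WI (5.24 to 14.3) and 13.5 in IR (7.17 to 19.8). Its difference between WI and Sham was -0.81 (model SE 0.45), lower than that of all but 2.05% of genes tested, but short of 2-fold and with overlapping bounds. The summed macrophage markers moved the same way between Sham and WI, from 573 to 304, and the sum was 210 in IR, where 6 of the 8 markers were lower than in WI while Marco (12.6 to 25.3) and Cd68 (12.3 to 18.5) were higher, as Tnfrsf1b was; their part in the Tnfrsf1b values was not tested. The ratio of Tnfrsf1a to Tnfrsf1b was 1.73 in Sham, 3.77 in WI and 5.95 in IR, so the TNFR1 transcript had the higher value in each library. The bounds of these genes overlapped in Sham but not in WI or IR.

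Tnf itself and the TRAIL receptor Tnfrsf10b stayed below an FPKM of 1 in all 3 libraries and so did not pass the filter. Tnf, on chromosome 17 from 35199367 to 35202007, was listed at 0 in Sham (0 to 0), at 0.0851 in WI (0 to 0.183) and at 0.808 in IR (0.226 to 1.39). The IR value was 9.49 times that of WI, and the lower IR bound lay above the upper WI bound. Tnfrsf10b had an FPKM of 0.0838 in Sham (0.00213 to 0.165), 0.102 in WI (0.00682 to 0.198) and 0.404 in IR (0.113 to 0.696). Its IR value was 3.95 times that of WI and 4.82 times that of Sham, ratios above those of Tnfrsf1a and Fas, but the bounds of IR overlapped those of WI and of Sham. Even in IR both genes were low, at percentile 3.98 (Tnf) and 0.741 (Tnfrsf10b) of the FPKM of the genes tested.

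None of the regulators below the receptors reached 2-fold in any comparison. Ripk1, the kinase that directs TNFR1 signaling to survival or death, had an FPKM of 6.14 in Sham (3.29 to 9.0), 5.85 in WI (3.12 to 8.58) and 5.67 in IR (3.02 to 8.31). Ripk3, the kinase that activates MLKL in necroptosis, had 1.77 in Sham (0.574 to 2.97), 1.26 in WI (0.286 to 2.24) and 1.53 in IR (0.475 to 2.58). Cflar, which encodes the caspase-8 inhibitor c-FLIP, had 14.0 in Sham (4.46 to 23.6), 17.4 in WI (5.47 to 29.3) and 12.6 in IR (4.23 to 20.9). For each of the 3 genes every value lay within the bounds of the other libraries. Casp8 had an FPKM of 9.73 in Sham (4.70 to 14.8), 8.72 in WI (4.42 to 13.02) and 13.6 in IR (6.71 to 20.6), so the ratio of Cflar to Casp8 was 1.44, 1.99 and 0.921 in that order, with bounds of both genes that overlapped in each library.

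**Figure D1:**
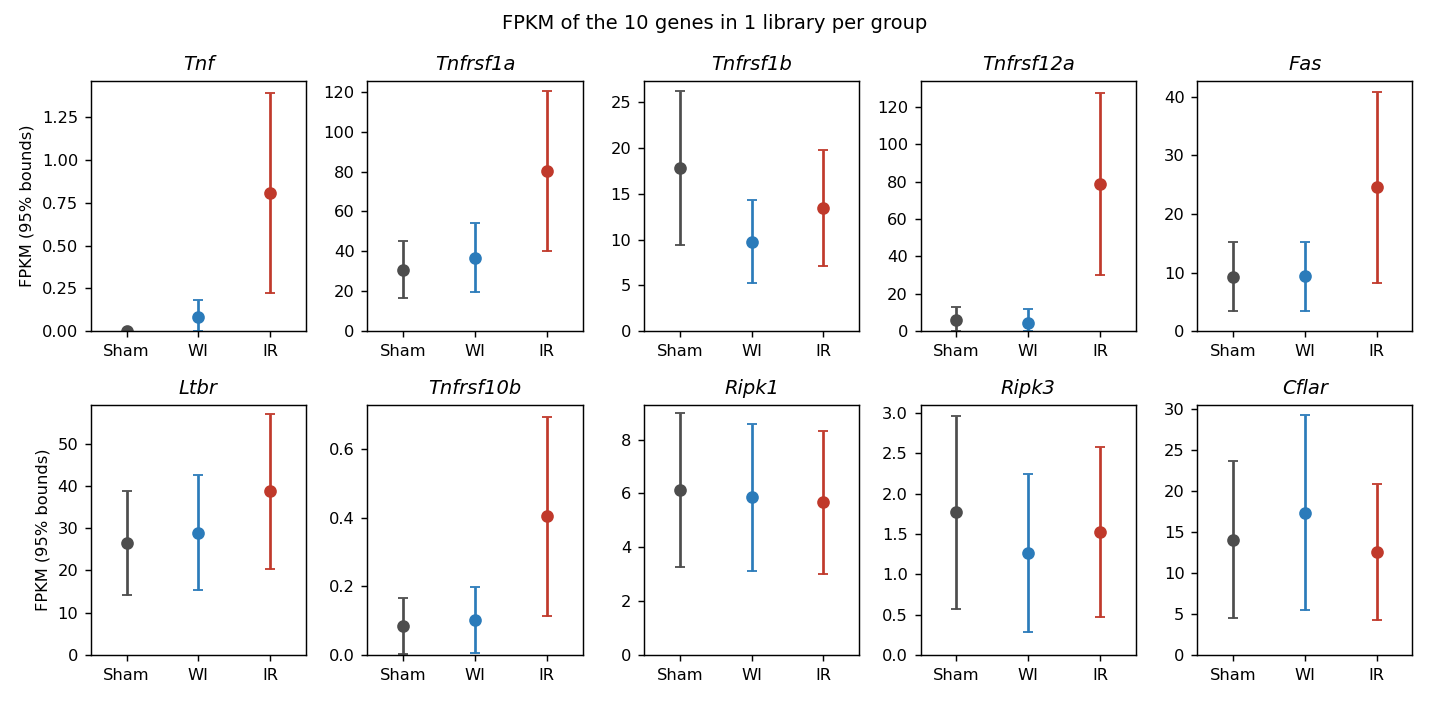
FPKM (vertical axis, linear from 0, a separate scale for each gene) of the 10 genes in the Sham, WI and IR libraries, with the deposited 95% bounds as bars. The IR bars of Tnfrsf12a and Tnf lie wholly above the WI and Sham bars, while for the other 8 genes the bars overlap. Both Sham bounds of Tnf are 0, so any lower IR bound above 0 clears them.

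Ordered by level, Tnfrsf1a was the most abundant of the 10 transcripts in each library and was followed in Sham by Ltbr, Tnfrsf1b, Cflar, Fas, Tnfrsf12a, Ripk1, Ripk3, Tnfrsf10b and Tnf. In that order the bounds of neighbours overlapped down to Ripk1, and Ripk1 stood apart from Ripk3. In WI, Cflar stood above Tnfrsf1b and Ripk1 above Tnfrsf12a, each pair with overlapping bounds. In IR, Tnfrsf12a moved to rank 2, between Tnfrsf1a and Ltbr, with bounds that overlapped those of both. Summed over the 28 receptors of the TNF receptor superfamily, FPKM was 103 in Sham, 103 in WI and 248 in IR. Tnfrsf12a made up 6.05% of that sum in Sham, 4.17% in WI and 31.7% in IR, and Tnfrsf1a 29.8%, 35.6% and 32.3%.

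The 8 genes that passed the filter were read against all genes tested. Between WI and Sham, 0 of the 8 were called, beside 0.751% of all genes called higher and 1.1% called lower. Between IR and WI, 3 of the 8 were called higher (Tnfrsf1a, Tnfrsf12a and Fas) beside 5.78% of all genes, and 0 lower beside 1.43%. The comparison of IR with Sham, which shares the IR library, also called those 3 higher beside 5.35% of all genes, and 0 lower beside 2.15%. The median difference of the 8 genes from Sham to WI was -0.02, against 0.02 over all genes. From WI to IR it was 0.42 against 0.03, and from Sham to IR 0.22 against 0.05.

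Read by bounds, fewer genes stood apart. Bounds lay wholly higher in IR than in WI for 1 of the 8 genes, Tnfrsf12a, beside 3.22% of all genes, and for the same gene against Sham beside 2.7%. Bounds lay wholly lower in 0 of the 8 in both comparisons, beside 0.398% of all genes when IR was set against WI and 1.12% against Sham. Between WI and Sham no bounds of the 8 were separate, beside 0.195% of all genes higher and 0.482% lower.

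The calls of Tnfrsf1a and Fas depended on how the libraries were scaled. FPKM summed to 475754 in Sham, 487912 in WI and 712423 in IR, and rescaling each library to a common sum (TPM) moved the median difference of all genes to -0.45 from WI to IR and to -0.46 from Sham to IR. With TPM, 3.28% of genes were called higher and 10.1% lower in IR than in WI, and 2.72% and 13.4% against Sham. On that scale Tnfrsf12a was still higher in IR than in WI by 3.50, while Tnfrsf1a was higher by 0.57 and Fas by 0.81, short of 2-fold. Relative to the shifted median they stood at 1.02 and 1.26. Ltbr, Tnfrsf1b and Ripk3, higher in IR than in WI with the deposited FPKM, had differences of -0.12, -0.08 and -0.19 with TPM, and that of Cflar went from -0.44 to -0.97. Relative to the shifted median these 4 genes stood at 0.32, 0.37, 0.25 and -0.53. The status for loci too deep to process, under which Alb is listed at 0, was carried by 1 gene in Sham, 1 in WI and 7 in IR. Such genes can be missing from the sums behind TPM.

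**Figure D2:**
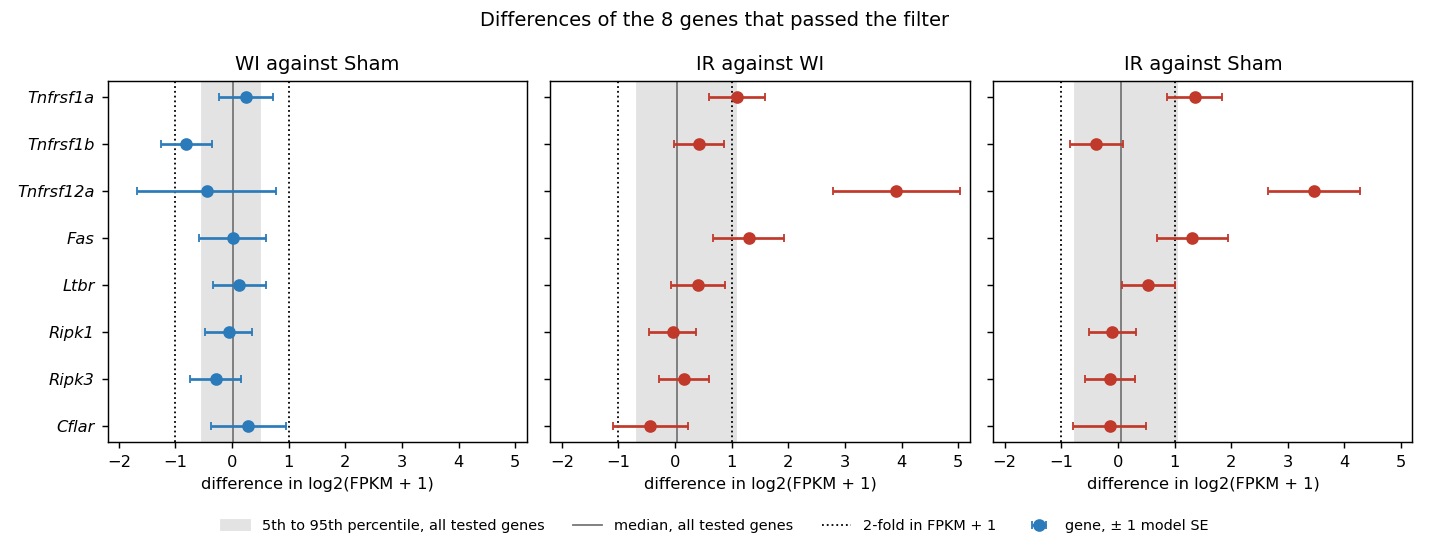
Difference of log2(FPKM + 1) (horizontal axis) of the 8 genes that passed the filter, in the 3 comparisons, with ± 1 SE from the deposited bounds, the range from the 5th to the 95th percentile of all tested genes in grey and dotted lines at 2-fold. Tnfrsf12a lies at 3.91 and 3.46 in the comparisons of IR with WI and with Sham, Tnfrsf1a and Fas lie just past the 2-fold line in both, and no gene passes it between WI and Sham.

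The profile over the 3 libraries, as log2(FPKM + 1) minus its own mean, was compared with that of all genes tested. Nearest to Tnfrsf12a were Il1rn, the natural antagonist of IL-1, at a Euclidean distance of 0.0152 log2 units, Hmox1, which degrades heme, at 0.106, and Atf3, a stress-induced transcription factor, at 0.128. Only these 3 genes lay within a distance of 0.2 of Tnfrsf12a. For Tnfrsf1a 106 genes lay as near, led by 3110082I17Rik, Mrps18b and Stat3, and for Fas 144, led by Glipr2, Isg20 and Mthfd2. Il1rn had an FPKM of 4.65 in Sham, 3.20 in WI and 61.3 in IR. With 3 libraries such likeness is a description only.

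The ligands did not all follow their receptors. TWEAK (Tnfsf12), the ligand of the Tnfrsf12a receptor, had an FPKM of 7.44 in Sham (2.95 to 11.9), 9.29 in WI (4.2 to 14.4) and 8.66 in IR (4.05 to 13.3), and all these bounds overlapped, whereas the IR bounds of its receptor stood above those of Sham and WI. Fas ligand (Fasl) was at 0.436 in Sham (0.0975 to 0.775), 0.110 in WI (0 to 0.230) and 0.183 in IR (0.00403 to 0.361), so the higher Fas in IR stood beside low Fasl. Markers of T and NK cells, the best known sources of Fasl, were low, 9 of them summing to 10.8, 10.7 and 5.34 FPKM in Sham, WI and IR, with 6 below 1 in all libraries and none at 0. Tnfsf10, which encodes TRAIL, had 2.12 in Sham (1.02 to 3.21), 2.70 in WI (1.35 to 4.06) and 0.632 in IR (0.233 to 1.03), and its IR bounds lay wholly below those of WI. Its receptor Tnfrsf10b had its highest value in IR, so ligand and receptor differed in direction from WI to IR. Tnfsf14, which encodes LIGHT, a ligand of Ltbr, was at 0.132 in Sham (0.00332 to 0.261), 0.168 in WI (0.0130 to 0.324) and 3.16 in IR (1.39 to 4.94). It was the ligand called higher in IR, with bounds wholly above those of WI and Sham. The summed neutrophil markers were also higher in IR (471 against 19.6 in WI), 7 of the 8 being called; their part in the Tnfsf14 and Tnf values was not tested.

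**Figure D3:**
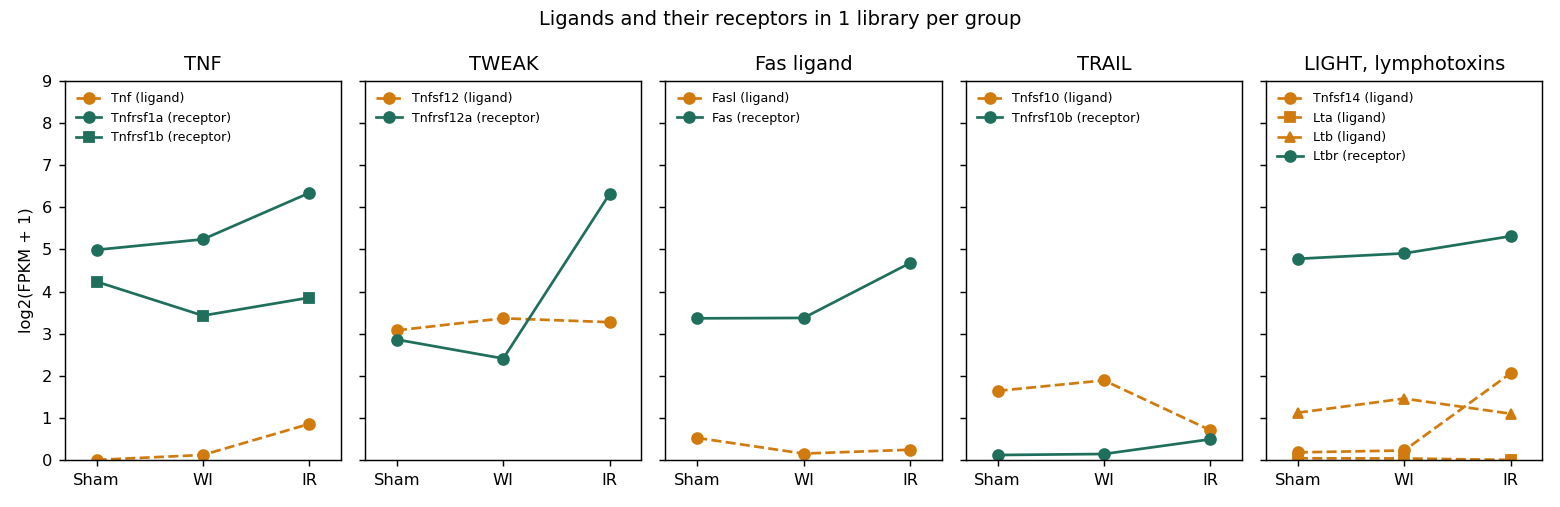
Level as log2(FPKM + 1) (vertical axis) of 5 groups of ligands (dashed orange lines) and their receptors (solid green lines) in the Sham, WI and IR libraries, 1 point per library. Tnfrsf12a climbs from WI to IR while its ligand Tnfsf12 differs by -0.09, Tnfsf14 and Tnf climb from near 0, and Tnfsf10 declines.

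Other genes of the pathway were taken from 5 lists, and their counts are set beside the same shares of all genes given above. Of 18 ligands of the TNF superfamily, 5 passed the filter, of which Tnfsf14 was called higher and Tnfsf10 lower between IR and WI, and 0 were called between WI and Sham. Of 28 receptors, 12 passed, and beside the 3 already named Tnfrsf9 (4-1BB, a costimulatory receptor of activated lymphocytes) was called higher in IR than in WI. Tnfrsf9 had an FPKM of 0.0973 in Sham, 0.0935 in WI and 1.25 in IR (0.229 to 2.26). Like Tnfsf14, it passed the filter only through its IR value, so the filter favoured both calls. Tnfrsf14 (HVEM), the other receptor for LIGHT, was called lower, at 4.23 in WI (1.65 to 6.81) and 1.21 in IR (0.308 to 2.10), although these bounds overlapped. The median difference between IR and WI was 0.41 over the 12 receptors, and 0.13 over the 7 of them that are not among the 10 genes.

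Of 30 genes for the receptor complex, its ubiquitin ligases and the IKK kinases, 29 passed and 4 were called higher in IR than in WI, with 0 lower. Tnfaip3, which encodes the ubiquitin-editing inhibitor A20, went from an FPKM of 1.15 in WI (0.490 to 1.80) to 6.51 in IR (3.49 to 9.53). Mapkapk2, a kinase that stabilizes Tnf mRNA, went from 21.5 (11.5 to 31.5) to 66.0 (33.1 to 98.8), and Tnip1, a partner of A20, from 2.59 (1.04 to 4.13) to 7.95 (3.74 to 12.2). Rnf31, the catalytic subunit of the linear ubiquitin ligase, was the fourth, from 3.28 (1.60 to 4.95) to 7.90 (4.21 to 11.6). The WI and IR bounds of Tnip1 and Rnf31 overlapped, and with TPM neither was called between IR and WI. Against Sham the order differed. The IR bounds lay wholly higher for Tnip1, at 2.19 in Sham (0.811 to 3.57), and it was called with TPM. Those of Mapkapk2, at 28.7 in Sham (15.3 to 42.2), overlapped, and it was not called with TPM. The median difference of the list was 0.12 between IR and WI. With TPM it was -0.29, against -0.45 over all genes. On that scale Tnfaip3 and Mapkapk2 were called higher, beside 3.28% of all genes. Xiap, Map3k7 and Cyld were called lower, beside 10.1% of all genes, and these 3 of 29 lay near that share. Xiap lies on the X chromosome, and the libraries differ in sex-linked transcripts. Tradd, the adaptor of TNFR1, had an FPKM of 7.28 in Sham, 8.66 in WI and 7.28 in IR.

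Of the 14 genes of the death-inducing complex and of necroptosis, all passed the filter and 0 were called in any of the 3 comparisons. Their median difference was 0.29 between WI and Sham, against 0.02 over all genes, and -0.13 between IR and WI, against 0.03. Between WI and Sham 10 of the 14 lay above 0, beside 52.5% of all genes tested. Ripk1, Ripk3 and Cflar are in this list, and over the other 11 genes the medians were 0.32 and -0.23. Among the differences between WI and Sham were those of Zbp1, a nucleic acid sensor that engages RIPK3, at 0.63, and of the caspase Casp6 at 0.59. The WI and Sham bounds of both genes overlapped. Mlkl, the effector of necroptosis, had an FPKM of 2.96 in Sham (1.27 to 4.65), 3.48 in WI (1.54 to 5.41) and 3.56 in IR (1.58 to 5.53).

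The list of 31 genes that TNF is known to induce had the highest median of the 5 lists in both comparisons with IR, and a median of 0.05 between WI and Sham. Of the 25 that passed, 15 were called higher and 0 lower between IR and WI, with a median difference of 1.39. All 25 lay above 0, beside 52.4% of all genes tested. The filter takes the highest of the 3 libraries, so Sele, Selp, Cxcl2 and Tnfaip6, all called higher, passed it only through IR. With TPM 12 were called higher and the median was 0.91. Cxcl2, a neutrophil chemokine, went from an FPKM of 0.308 in WI (0.00944 to 0.607) to 22.8 in IR (11.98 to 33.7), and Atf3 from 5.76 (2.85 to 8.67) to 114 (54.8 to 173). Bcl3, an atypical inhibitor of NF-kB, went from 8.45 (4.29 to 12.6) to 48.4 (25.5 to 71.2). Relb, the NF-kB subunit downstream of Ltbr, was called as well, at 1.56 in WI (0.591 to 2.52) and 4.71 in IR (2.27 to 7.15). Its WI and IR bounds overlapped, and with TPM it was not called between them. Against Sham, at 1.17 (0.408 to 1.94), its IR bounds lay wholly higher and it was called with TPM. The genes of this list also answer to other stimuli, including IL-1 and Toll-like receptor ligands. Between WI and Sham, Cxcl1 and Cxcl10 were called higher and Vcam1, an endothelial adhesion molecule, was called lower, at 30.5 in Sham (15.9 to 45.1) and 7.76 in WI (4.13 to 11.4). Between IR and Sham, 15 genes were called higher and 1 lower, which was again Vcam1.

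**Figure D4:**
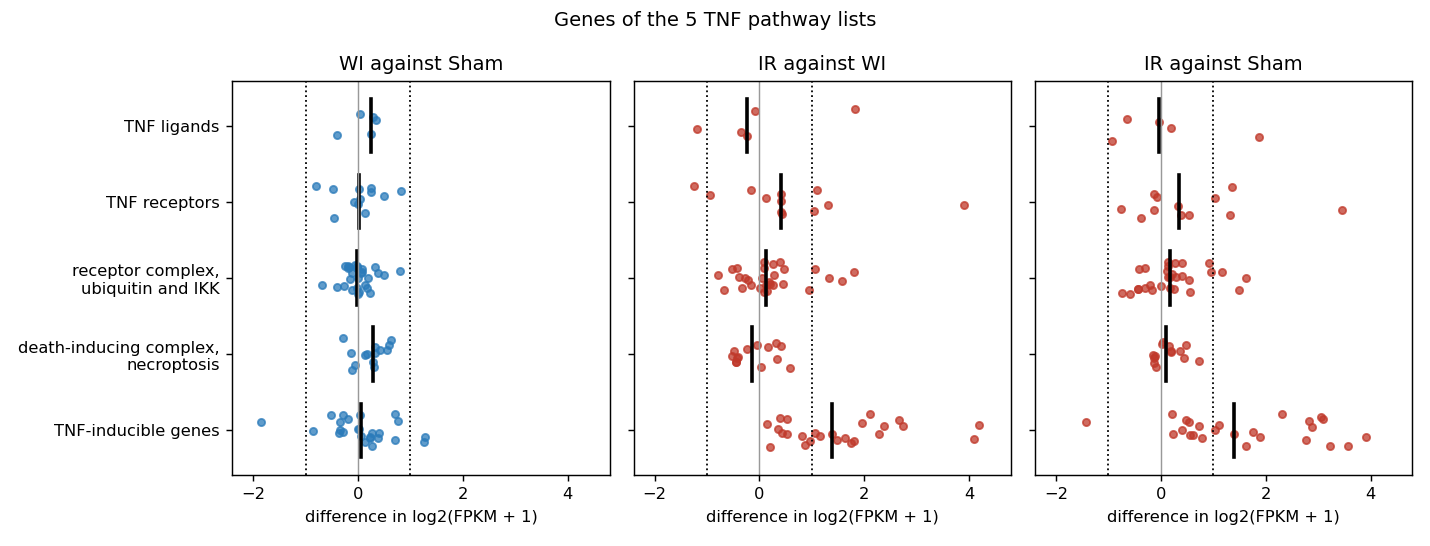
Difference of log2(FPKM + 1) (horizontal axis) for each gene that passed the filter in the 5 pathway lists, with the median of each list as a black bar and dotted lines at 2-fold. In the comparison of IR with WI the median of the TNF-inducible genes lies at 1.39, while those of the death-inducing complex (-0.13) and of the receptor complex (0.12) lie near 0.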

How the data were processed

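The mRNA of 3 liver libraries, 1 each for Sham, WI and IR, was analysed. Per the labels and the study's methods, the authors mapped reads to mm10 with TopHat2 2.0.9 and computed FPKM per gene with the Cufflinks 2.0.2 suite, versions as in the submitters' processing notes. The deposited FPKM tables hold each gene's value, its 95% bounds and a status; the annotation is not given in the sources used here. Read counts are not in these tables, so the reads behind each gene are not known; the library read totals that the study states were not used here. From them, log2(FPKM + 1) was compared over genes whose FPKM reached 1 in any library, with calls at 2-fold or by separate bounds. The model SE is the distance from FPKM to the upper bound divided by 1.96, carried to the log2 scale. Locus starts in the files were counted from 0, and coordinates are printed from 1.

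The genes, pathway lists and marker lists were chosen with earlier results of these data known. Named beyond the 10 genes are called list genes, up to 8 per list by size of difference, the 3 nearest profiles of each called gene, markers and sex-linked genes. Added after their values were seen were Tnfsf12, Fasl, Tradd, Casp6, Casp8, Mlkl, Zbp1, Relb, Cxcl10, Vcam1, Sele, Tnfaip6, Xiap, Map3k7, Cyld and Hcfc1r1. All list symbols were matched, 1 (Otulin) by an older symbol, and of the markers Ly6g was not. Promoters came from RefSeq (GRCm38.p6). Alternatives covered the pseudocount, filter, fold, scaling, status and bounds. The call rules were tested on simulated data. Python 3.11.15, numpy 2.4.6, pandas 2.3.3 and matplotlib 3.10.9 were used.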

Additional observations from a re-analysis of the deposited data

How the results depend on the processing

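No alternative that leaves out a replicate and no paired analysis was possible because each group has 1 library. Of the 10 genes, the number called between WI and Sham was 0 in all settings but a threshold of 1.5-fold, where Tnfrsf1b made it 1. The 3 genes called between IR and WI became 1 (Tnfrsf12a) at 4-fold, by separate bounds and with TPM. Between IR and Sham the 3 became 1 at 4-fold and by separate bounds, and 2 with TPM (Tnfrsf12a and Tnf). TPM multiplied values by 2.10 in Sham and 1.40 in IR, while the filter and pseudocount stayed at 1. On that scale Tnf, listed at 0 in Sham, passed the filter only through IR, so the filter and pseudocount favoured its call. Median ratio scaling and pseudocounts of 0.1 and 0.01 kept Tnfrsf1a, Tnfrsf12a and Fas in both comparisons, although a smaller pseudocount could only add calls. The same 3 genes stayed with no filter, a filter at FPKM 5 or status OK in all libraries. They also stayed when genes on X and Y were left out, a setting chosen after seeing the data. Neither a filter change, the status nor the chromosomes could have altered these calls. Genes below FPKM 1 throughout cannot reach 2-fold in FPKM + 1, and the 3 genes exceed FPKM 5 in IR, have status OK and are autosomal. With bounds as the rule, the 1 gene (Tnfrsf12a) became 2 (with Tnf) without a filter in both comparisons of IR, and with TPM against Sham. Both Sham bounds of Tnf are 0, so its separation from Sham needed only a lower IR bound above 0.

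For the lists, settings chosen after seeing the data moved these counts of genes called. With TPM, ligands between IR and Sham went from 1 to 4 (2 higher, with Tnf among them, and 2 lower), and receptors between WI and Sham from 0 to 1 (higher). Receptor complex genes between IR and Sham went from 3, all higher, to 5 (2 higher, 3 lower), and death complex genes between IR and WI from 0 to 2 (lower). With TPM, 0.824% of all genes were called higher and 1.56% lower between WI and Sham. The shares were 3.28% and 10.1% between IR and WI, and 2.72% and 13.4% between IR and Sham. The lower counts of the receptor complex and death complex lists lay near these shares. Directions also shifted between IR and WI, with receptors going from 4 higher and 1 lower to 2 and 2, and receptor complex genes from 4 higher and 0 lower to 2 and 3. By bounds, receptors went from 5 to 2 between IR and WI and from 4 to 2 between IR and Sham, and TNF-inducible genes between WI and Sham from 3 to 1. No called difference of the 10 genes changed sign under another pseudocount or scaling. Of uncalled differences, Ltbr, Tnfrsf1b and Ripk3 between IR and WI, Ltbr between IR and Sham and Fas between WI and Sham turned negative with TPM, the last also with median ratio scaling. Relative to the TPM median of all genes, those of Ltbr, Tnfrsf1b and Ripk3 stayed positive. The differences of Tnf and Tnfrsf10b, both below FPKM 1, depended most on the pseudocount: at 0.01 Tnf stood at 3.10 and Tnfrsf10b at 1.88 between IR and WI. With 1 library per group the mouse-to-mouse spread cannot be given, and without read counts per gene the precision rests on the deposited bounds.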
